A study of Mus musculus with 6 samples.

Results

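The nuclear genes for subunits of the mitochondrial respiratory chain and ATP synthase were read from 6 arrays of activated mouse T cells. Members were all non-control probes whose gene name in the files began with Nduf followed by a, b, c, s or v and a number, with Uqcr or with Atp5, or was an Sdh gene or one of Cox4 to Cox8 followed by no more than a letter and a number. This gave 109 probes for 78 genes of the 27976 genes on the array. Assigned to complexes by name alone, 35 genes were in complex I, 4 in complex II, 7 in complex III, 15 in complex IV and 17 under the ATP synthase names. The rule used names alone and no measured value. It also took in Atp5s and Atp5sl, now called Dmac2l and Dmac2, whose names begin with Atp5 although their current names are those of assembly proteins.

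Each array held 2 RNAs from CD4 T cells of C57BL/6J mouse spleens, isolated with magnetic beads against CD4. Both RNAs came from cells activated with PMA, a phorbol ester that activates protein kinase C, and ionomycin, a calcium ionophore. The cells of one RNA also received vasoactive intestinal peptide (VIP), a neuropeptide that acts on T cells mainly through receptors that raise cyclic AMP, and the cells of the other did not. A sample pooled 5 to 10 spleens of males and females aged 6 to 32 weeks. No label or header used here states the dose of VIP or the time of exposure. The 6 arrays are labelled biological replicates, and VIP was labelled with the red dye Cy5 on 3 of them and with the green dye Cy3 on the other 3. The comparison asked which transcripts differ between activated cells with and without VIP.

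Oxidative phosphorylation passes electrons from NADH through complex I and from succinate through complex II to ubiquinone, then through complex III and cytochrome c to complex IV, where oxygen is reduced to water. Complexes I, III and IV pump protons across the inner mitochondrial membrane, and ATP synthase, complex V, lets them flow back to make ATP. T cells that leave the resting state raise glycolysis as well as mitochondrial respiration. Most subunits are encoded in the nucleus, and a core few are encoded in mitochondrial DNA.

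One array stood apart. On replicate 5 the sex-linked transcripts differed strongly between both channels, with log2 ratios of VIP over untreated of -3.29 for Xist, 4.08 for Ddx3y and 4.18 for Eif2s3y, against values from -0.34 to 0.46 for these genes on the other arrays. It also had 13.5% of its spots marked as outliers, and 17 of the 78 members had no value there, against 0 to 2 on each other array. Results are therefore also given without it. On every slide VIP in Cy5 and VIP in Cy3 had the same 2 positions, so slide position and dye orientation cannot be told apart. The VIP ratio is estimated from the contrast between these orientations. A dye difference that varied with position would therefore enter the VIP ratios. All 8 CD4 T cell markers were above background in both channels of all 6 arrays. So were 5 of 7 B cell markers and 5 of 7 monocyte and macrophage markers, and among these 3 lists Cd28 (log2 ratio 0.28) and Cd14 (0.57) were higher with VIP. None of the dendritic, CD8 T, NK, neutrophil, erythroid or platelet markers tested was called. In such bulk RNA fewer cells of a type and less RNA per cell cannot be told apart.

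With VIP, no subunit gene passed the test in either direction. Of the 78 members, 75 were above background in both channels of all 6 arrays and were tested. By limma with Benjamini-Hochberg adjustment over all 22829 genes tested, 0 members were higher and 0 were lower at an adjusted p under 0.05, where 1.59% of all genes were higher and 0.521% were lower, 2.11% in all. At an unadjusted p under 0.05, 0 members were higher and 2 were lower, Ndufb5 and Atp5g3, where the shares of all genes were 7.19% and 5.75%. None of 22 alternative fits called a member, though some of these fits share the same estimates.

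With loess the ratios were small as well as uncalled. The log2 ratio of VIP over untreated ran from -0.18 to 0.11 over the 75 members, with 40 above 0 and 35 below. Their median was 0.0011, and that of all genes tested was -0.00044. With each array only centred on its median in place of the loess fit, the median over members was 0.086 and that of all genes -0.0011. The members then ran from -0.15 to 0.36, and 0 were called. With loess the SD between members was 0.057, and between all genes it was 0.091. The called genes of the series had a median absolute log2 ratio of 0.30, a 1.23-fold difference. The 95% interval lay wholly within that size, in both directions, for 73 of the 75 members (97.3%) and for 93.1% of all genes, and the exceptions were Ndufb5 and Atp5g3. The median standard error of the members was 0.049 log2 units, and that of all genes was 0.048.

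**Figure D1:**
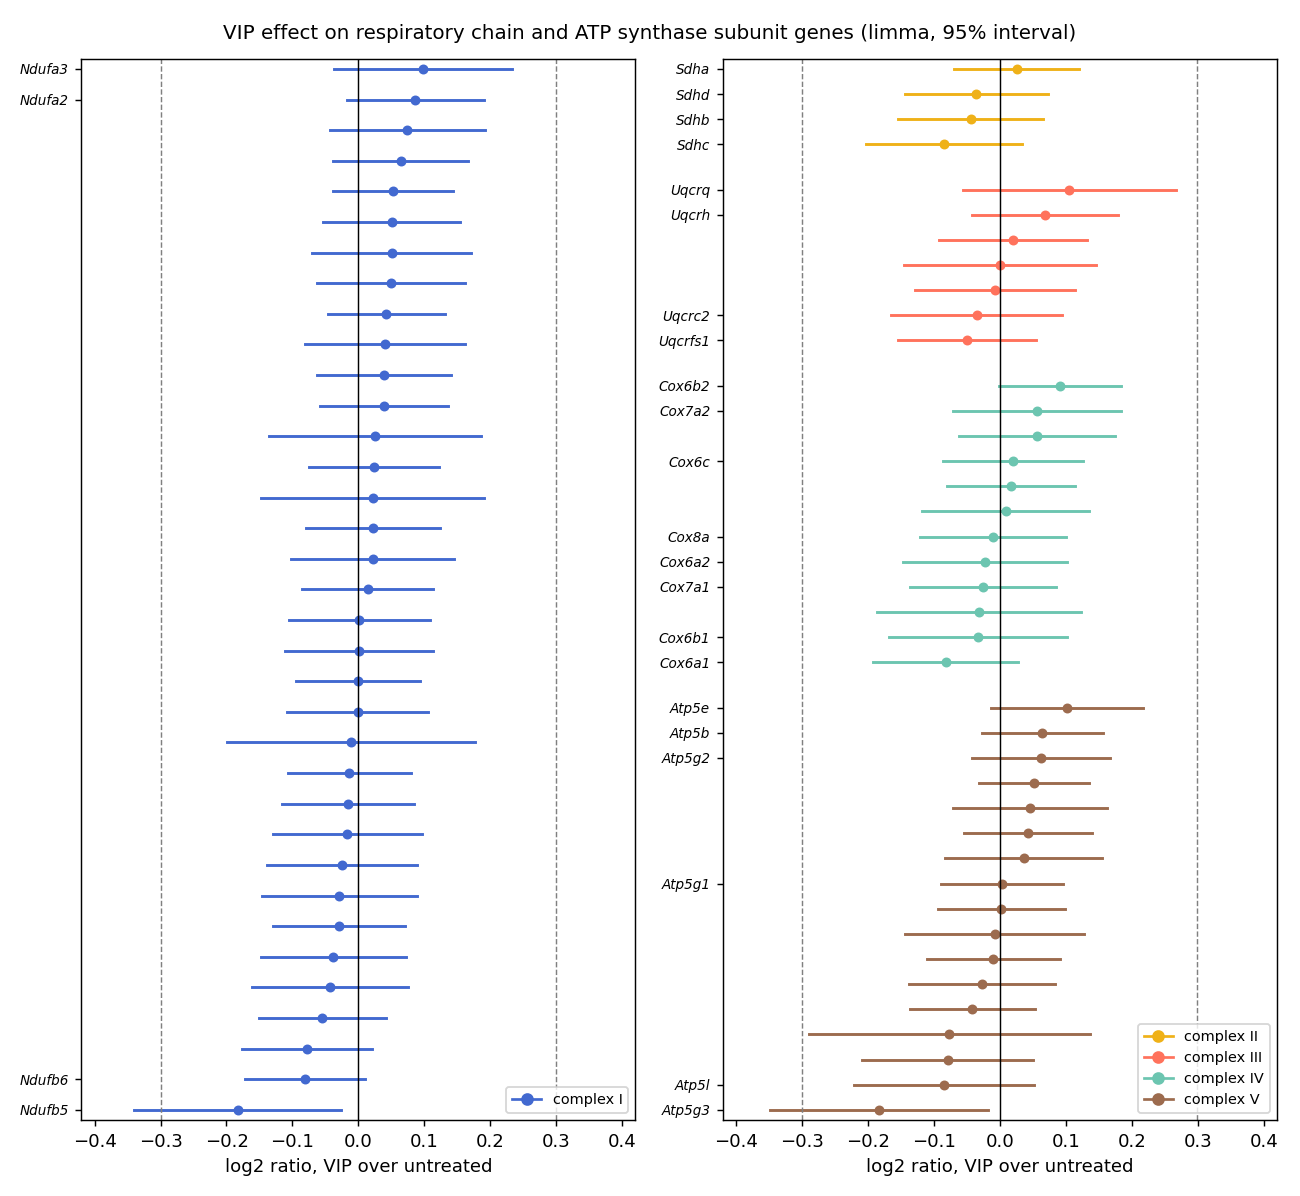
Log2 ratio of VIP over untreated for each of the 75 tested subunit genes, grouped by complex and with the names of genes chosen by the rule for named genes, as limma estimates (points) with 95% intervals (bars); the dashed lines mark the median absolute log2 ratio of called genes, 0.30, on either side of 0. Points lie between -0.18 and 0.11, and only the bars of Ndufb5 and Atp5g3 leave out 0 or cross a dashed line.

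The members also lacked a common shift from array to array. After the dye effect was removed, the median ratio over members was 0.018, 0.030, 0.012, -0.079, 0.0077 and 0.050 on replicates 1 to 6. Replicate 4 was the lowest and stood apart from the other 5 arrays. Each slide carried 1 array of each dye orientation, and the median over members within the 3 slides was 0.019, -0.034 and 0.028. The middle slide, which holds replicate 4, had the opposite sign to the other two. Without replicate 5 the median over members was 0.023. Of the 55 tested members with values on all 6 arrays, 0 had the same sign of the ratio on every array before the dye effect was removed, while 3.36% of all genes with values on every array were above 0 on all of them and 2.69% were below.

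**Figure D2:**
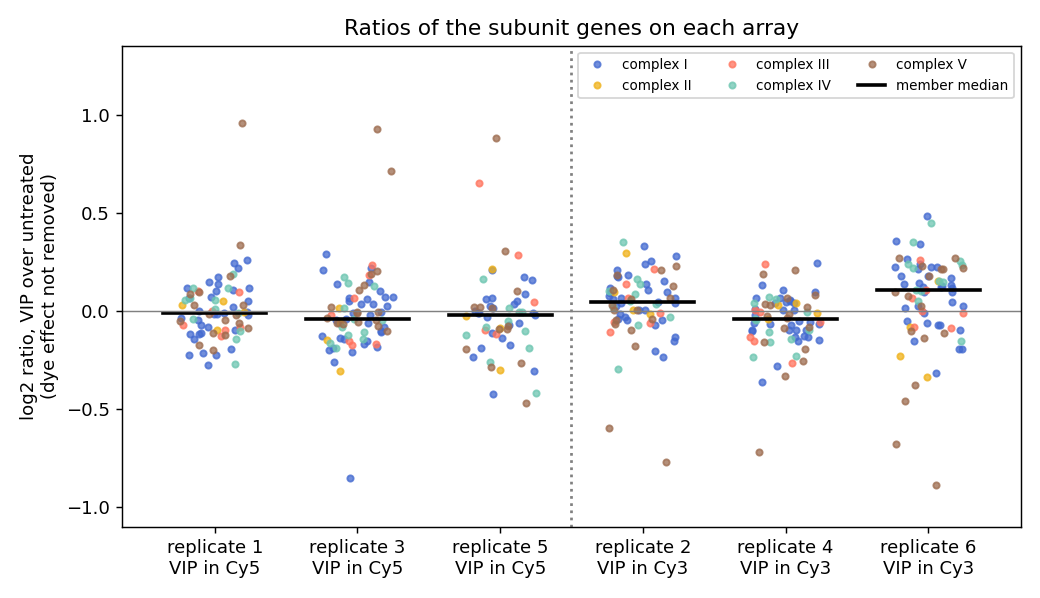
Log2 ratio of VIP over untreated of every tested subunit gene on each of the 6 arrays, before the dye effect was removed; points are genes coloured by complex, black lines are medians over members, and the dotted line parts arrays with VIP in Cy5 from those with VIP in Cy3. The clouds lie around 0, and the far brown point above 0.8 on the left and below -0.7 on the right is Atp5b.

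Complex I, the NADH dehydrogenase, is the largest of the assemblies. The 35 genes with Nduf names were all tested, 20 had ratios above 0 and 15 below, and their median was 0.014. The highest ratios belonged to Ndufa3 and Ndufa2, small accessory subunits. Ndufa3 had ratios from -0.13 to 0.23 on the 5 arrays with a value, and limma gave 0.10 ± 0.060 (SE) with an adjusted p of 0.571. Ndufa2 ran from -0.10 to 0.18 over 6 arrays, and its estimate was 0.09 ± 0.047 with an adjusted p of 0.502. Both genes had arrays on either side of 0. Grouped by name, which is not a position in the enzyme, the 13 Ndufa genes had a median of 0.025. The 10 Ndufb genes, whose products mostly sit in the far membrane arm, had -0.0084. The 10 Ndufs and Ndufv genes, which include the iron-sulfur and flavin-binding core, had 0.00086.

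The lowest ratio in complex I was that of Ndufb5, a membrane arm subunit. Its probe read a target at chr3:32650236-32650295 of mm9, on the plus strand, and its first 30 of 60 bases are shown because it is 1 of the 2 members that passed the unadjusted threshold.
Ndufb5 probe: cagggtagtaatgaaacctggaggtctggg
With VIP in Cy5 the ratio was -0.28, -0.85 and -0.31 on replicates 1, 3 and 5, and with VIP in Cy3 it was 0.18, 0.04 and 0.12 on replicates 2, 4 and 6. The sign followed the dye, and 1 array, replicate 3, was far below the others. The estimate was -0.18 ± 0.070 (SE), a 0.881-fold level with a 95% interval of 0.79 to 0.982, and limma's adjusted p was 0.295. Without replicate 3 the log2 estimate was -0.090, and without replicate 5 it was -0.23 with an adjusted p of 0.108 by limma. Ndufb6, another membrane arm subunit, was next lowest, from -0.14 to 0.04 over the arrays and with an estimate of -0.08 ± 0.041. Its adjusted p was 0.461.

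Complex II, succinate dehydrogenase, joins the tricarboxylic acid cycle to the chain and is encoded wholly in the nucleus. All 4 genes were tested, and their median was -0.040. Sdha, the flavoprotein that oxidises succinate, had ratios from -0.08 to 0.21 and an estimate of 0.03 ± 0.043 (SE). A dimmer probe of Sdha gave -0.06, so its sign depended on the probe. Sdhb, the iron-sulfur subunit, ran from -0.23 to 0.10 with an estimate of -0.04 ± 0.049. Of the membrane anchors, Sdhc ran from -0.34 to 0.03 with an estimate of -0.08 ± 0.053, and Sdhd from -0.31 to 0.29 with -0.04 ± 0.049. The 3 genes below 0 had arrays on both sides, and the smallest adjusted p of the complex, that of Sdhc, was 0.575 by limma.

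Complex III, the cytochrome bc1 complex, had 7 genes, 4 above 0 and 3 below, with a median of 0.00034. Uqcrq, a small accessory subunit, had the highest ratio of all members over the 6 arrays. It measured 0.09, 0.06 and 0.65 with VIP in Cy5 and -0.11, -0.13 and 0.06 with VIP in Cy3. Replicate 5 alone lay far above the rest. The estimate was 0.11 ± 0.073 (SE), with a 95% interval from -0.06 to 0.27 and a limma adjusted p of 0.623. Without replicate 5 the log2 estimate was 0.010, and Atp5e, at 0.10, was then the highest member. Uqcrh, the hinge protein, followed at 0.07 ± 0.049, while a dimmer probe of Uqcrh gave -0.06. At the other end were Uqcrfs1, the Rieske iron-sulfur protein, at -0.05 ± 0.047 and Uqcrc2, a core protein, at -0.04 ± 0.057, and the 95% interval of each held 0.

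Complex IV, cytochrome c oxidase, had 15 genes, of which 12 were tested, 6 above 0 and 6 below, with a median of -0.0012. Several of its subunits come from pairs of genes with different tissue patterns. Of the widely expressed forms, Cox6a1 had a log2 estimate of -0.08 ± 0.049 (SE), Cox6b1 -0.03 ± 0.060, Cox7a2 0.06 ± 0.058 and Cox8a -0.01 ± 0.050. None of these differed from 0 beyond its interval. The partners Cox6a2 and Cox7a1, known as heart and muscle forms, were above background in all channels and measured -0.02 ± 0.056 and -0.03 ± 0.050. Their signal was low, with mean log2 intensities of 7.8 and 8.0, against 17.3 for Cox6a1 and 14.7 for Cox7a2. The median of all genes tested was 7.97. On replicate 6 the background flag separated little, since 99.0% of spots passed it with VIP and 99.9% without. Cox6b2, known as a testis form, was also above background, at a mean log2 intensity of 8.6 against 11.1 for Cox6b1. Cox6b2 was the highest of the complex, at 0.09 ± 0.042 with an adjusted p of 0.4 by limma. It was above 0 on all 6 arrays once the dye effect was removed, and before that it was -0.05 on replicate 4 and above 0 on the others. Cox7b2, Cox8b and Cox8c were not tested, since their probes were well above background on 1 array in each treatment for Cox7b2 and on 2 for the other two. Their partners Cox7b and Cox8a were above background throughout.

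Complex V, ATP synthase, had 17 genes, 9 above 0 and 8 below, with a median of 0.0023. The 5 genes of the catalytic head and central stalk had a median of -0.0082. Among them Atp5e, the smallest subunit of the stalk, was highest at 0.10 ± 0.051 (SE), from -0.05 to 0.23 on 5 arrays, with a limma adjusted p of 0.458. Atp5l, the g subunit at the membrane, was among the lowest at -0.08 ± 0.062. The proton-carrying c-ring is built from one mature protein made by 3 genes, with estimates of 0.0034 ± 0.042 for Atp5g1, 0.06 ± 0.047 for Atp5g2 and -0.18 ± 0.074 for Atp5g3. The difference between them was not tested. Atp5g3 had the lowest ratio of all members. Its probe is shown for the same reason as that of Ndufb5, as the first 30 of 60 bases of a target at chr2:73746519-73746578 of mm9, minus strand.
Atp5g3 probe: ccgaagactgtagtactggtgtcatggaaa
The Atp5g3 ratio was -0.17, -0.04 and 0.30 with VIP in Cy5 and -0.18, -0.33 and -0.68 with VIP in Cy3. These values were below 0 on every array other than replicate 5, the array that stood apart, and with the dye effect removed replicate 2 was above 0 as well, at 0.035. The estimate was a 0.881-fold level, with a 95% interval of 0.786 to 0.987 and a limma adjusted p of 0.325. Within the 3 slides it was -0.18, -0.19 and -0.19. Without replicate 5 it was -0.25, with an adjusted p of 0.0559 by limma, the smallest of any member in any fit.

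For many members the dye moved the reading more than VIP did. The dye effect is the log2 difference of Cy5 over Cy3 that remains after VIP is balanced over both orientations. It was larger in size than the VIP effect in 54 of 75 members (72.0%) and in 60.1% of all genes. By limma 2 members read higher in Cy5 and 5 higher in Cy3 at an adjusted p under 0.05, where 3.86% and 2.82% of all genes did, 6.68% in all. Without replicate 5 the dye effect of 10 members was called, and the share of all genes in that fit was not counted. The median dye effect of members was -0.035, and that of all genes was 0.0036. These calls and signs rest on the loess fit, which subtracts a smooth curve of the dye difference along brightness. It left a dye difference among the brightest features, as in the ribosomal protein genes given below. With each array only centred on its median, the dye effect of 71 members was called, and the share of all genes was again not counted. The median dye effect of members became 0.60, against 0.14 for all genes. The 81 cytosolic ribosomal protein genes tested had a median dye effect of 0.42, and 48 of them read higher in Cy5 with loess.

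Atp5b, the catalytic beta subunit of ATP synthase, had the largest dye effect of the members. Its ratio was 0.95, 0.92 and 0.88 with VIP in Cy5 and -0.77, -0.72 and -0.89 with VIP in Cy3. The groups of 3 arrays were far apart and the sign followed the dye on every array. The dye effect was 0.86 ± 0.041 (SE), with an adjusted p of 2.2e-06 by limma, and it was called in 20 of 21 fits that have a dye term. With it removed, the VIP estimate was 0.06 ± 0.041. The spot was saturated in the VIP channel of replicate 5. Atp5b had 3 probes, shown here because they read 1 gene with unlike dye effects. All lie on the plus strand of chromosome 10 in mm9, at chr10:127527255-127527314, chr10:127522569-127522628 and chr10:127521478-127522156 in the order below; the brightest is given by its first 30 of 60 bases and the others whole.
Atp5b probe with the brightest signal: acaagagccttgattgaagatgtgatgttc
Atp5b probe 2: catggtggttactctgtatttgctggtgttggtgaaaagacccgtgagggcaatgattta
Atp5b probe 3: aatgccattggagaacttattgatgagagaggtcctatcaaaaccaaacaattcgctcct
Their dye effects were 0.86, -0.11 and 0.08, and only the first was called. Their VIP estimates were 0.06, -0.12 and 0.04, none of them called. Of the 3 probes only the brightest had the strong dye effect, at a mean log2 intensity of 17.7 against 15.5 and 14.1. Some other bright features also read higher in Cy5. The cytosolic ribosomal protein genes, at a median intensity of 17.6, had a median dye effect of 0.42. Cox6a1, at 17.3, had 0.15, with an adjusted p of 0.102 by limma. Over the 74 tested members without Atp5b, mean log2 intensity and dye effect had a Pearson correlation of 0.047 and a Spearman correlation of -0.10. Over all genes tested these were -0.042 and -0.14. Whether brightness or sequence goes with the dye effect of this probe was not tested.

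The other dye calls were smaller. They are named because of their values, outside the rule for named genes, except Ndufb5, Sdhd and Cox6c. Ndufa8, an accessory subunit of complex I, read higher in Cy5 by 0.23. Ndufb5 (-0.30), Ndufb4 (-0.25), Sdhd (-0.20), Cox6c (-0.20) and Atp5f1, the b subunit of the ATP synthase stalk (-0.16), read higher in Cy3 with loess and had a dye effect above 0 with median centring. Each of these was called in 10 to 14 of 21 fits, counted without regard to the sign of the dye effect. The fits include median centring, in which the dye effect of 71 members was called. For the genes that read higher in Cy3 with loess, the count may therefore hold a call in the opposite direction. Ndufa8 had 2 probes that overlap by 40 bases, on the minus strand at chr2:35891871-35891930 and chr2:35891854-35891910 of mm9, shown as 30 bases each with the shared bases in capitals.
Ndufa8 probe 1, bases 11 to 40: ttaacaaaaaAGTTAATTTATGTGACTTGG
Ndufa8 probe 2, bases 1 to 30: AGTTAATTTATGTGACTTGGCAGTTATTCT
Their dye effects were alike, 0.23 and 0.27, and so were their VIP estimates, -0.03 and -0.04. These probes share most of their sequence and are not separate measurements of the gene.

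**Figure D3:**
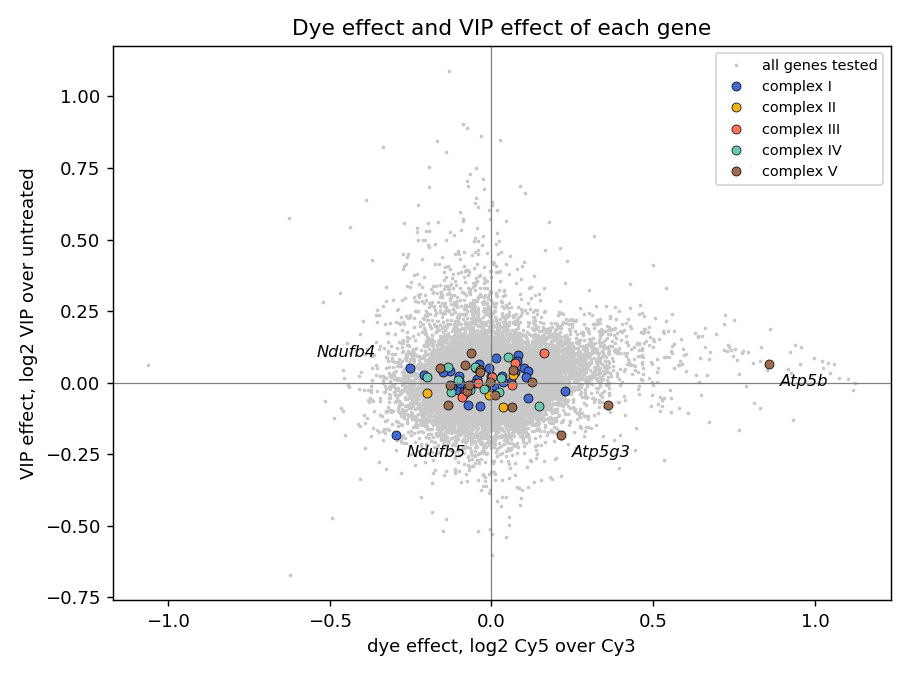
Dye effect (log2 Cy5 over Cy3, horizontal) against VIP effect (log2 VIP over untreated, vertical) with loess, with grey points for all 22829 genes tested and coloured points for the 75 subunit genes by complex. The subunit genes spread along the dye axis from -0.30 to 0.86 and stay between -0.18 and 0.11 on the VIP axis.

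Among members, 25 genes had more than 1 tested probe. The probes of 12 of these genes had VIP estimates of opposite sign, and no probe of any was called. Estimates for 1 gene differed between its probes by a median of 0.040 and by up to 0.19, the latter for Atp5b. Dye effects differed by a median of 0.098 and by up to 0.96. Of the 105 member probes tested, 0 were called for VIP, where 713 of 33233 probes were in the whole table. Atp5f1 held the probe with the highest estimate, 0.17 ± 0.055 (SE), with a limma adjusted p of 0.182, while its brightest probe gave 0.05. Over the brightest probe of each tested member, GC content ran from 28.3% to 60%, with a median of 45%.

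**Figure D4:**
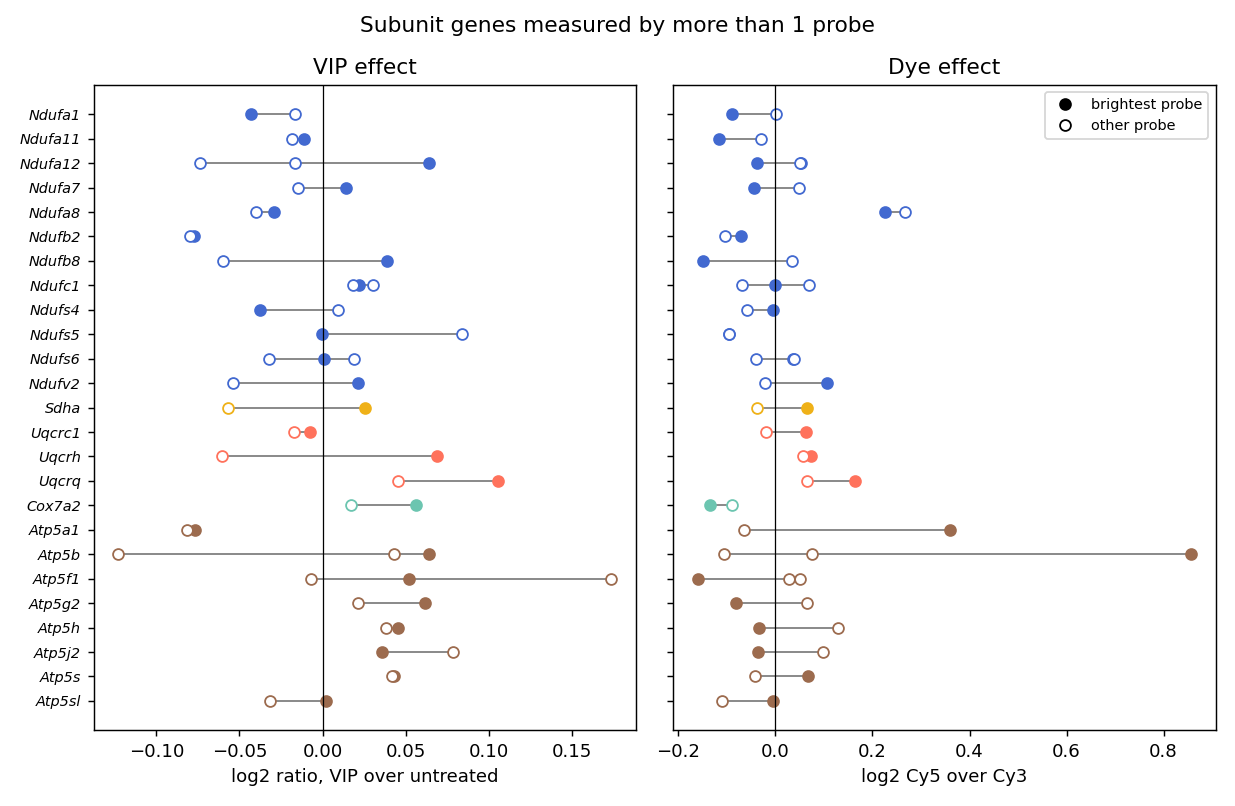
VIP effect (left, log2 VIP over untreated) and dye effect (right, log2 Cy5 over Cy3) of every tested probe of the 25 subunit genes with more than 1; filled circles are the brightest probe of a gene, open circles its other probes, and lines join probes of 1 gene. Probes of 12 genes fall on both sides of 0 for VIP, and the Atp5b probes are the widest apart for dye, by 0.96.

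Promoters were set beside these values because VIP raises cyclic AMP, whose response element (CRE) has the full form TGACGTCA, and because genes of the respiratory chain are known targets of the factors NRF-1, GABPA and YY1. RefSeq windows from 250 bases before to 50 bases after the gene start (GRCm38.p6) were matched for 66 of 78 members, with 72 windows. The full CRE, searched on both strands, was in 4 member windows (5.56%), against 1.79% of all 32851 windows and 2.23% of those of protein-coding genes. The 60 bases around it in those promoters are printed with the CRE in capitals, since these are the members whose matched window held the full form. They lie at chr1:92473792-92473851 (minus strand), chr17:56717578-56717637 (plus), chr6:39592525-39592584 (plus) and chr13:30545312-30545371 (minus).
Ndufa10: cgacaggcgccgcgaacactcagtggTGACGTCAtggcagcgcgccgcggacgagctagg
Ndufa11: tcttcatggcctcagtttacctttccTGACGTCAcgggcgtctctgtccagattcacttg
Ndufb2: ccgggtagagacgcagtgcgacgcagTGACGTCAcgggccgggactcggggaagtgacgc
Uqcrfs1: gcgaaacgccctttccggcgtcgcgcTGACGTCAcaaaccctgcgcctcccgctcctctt
The VIP estimates of these 4 genes were 0.05, -0.01, -0.08 and -0.05 in that order, and 0 were called. In the whole table, 2.90% of 414 tested genes with a CRE in a window were higher with VIP and 0.966% lower, against 1.72% and 0.664% of 13254 genes whose windows lack it.

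Motifs of the respiratory chain regulators were counted in the same windows. The NRF-1 core GCGCATGC was in 10 member windows (13.9%), against 2.71% of all windows and 3.52% of those of protein-coding genes. The YY1 core AAGATGGC was in 12 (16.7%), against 2.75% and 3.05%. The GABPA site CCGGAAGT was in 5 (6.94%), against 3.89% and 5.15%, and TATAAA in 8 (11.1%), against 13.6% and 12.6%. All were searched on both strands, and a match is a run of letters and not a bound site. The promoter of Cox6a1, at chr5:115349087-115349146 on the minus strand, is an example with the NRF-1 core in capitals.
Cox6a1: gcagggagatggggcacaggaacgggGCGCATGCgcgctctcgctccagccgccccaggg
The 10 genes with the NRF-1 core had VIP estimates from -0.08 to 0.07, the 5 with the GABPA site from -0.01 to 0.07 and the 11 with the YY1 core from -0.04 to 0.10. No gene of these sets was called.

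Lists of other genes around the chain held 0 or 1 calls each, where 2.11% of all genes tested were called. These counts were not tested against that share. Among 8 subunit or partner genes that the name rule misses, 0 passed in either direction with a median of -0.0075. Cox4i1, the main subunit 4 of complex IV, measured 0.08 ± 0.054 (SE), Cyc1, cytochrome c1, 0.09 ± 0.060 and Cox7a2l, a supercomplex factor, -0.05 ± 0.045. For subunits encoded in mitochondrial DNA, COX2 measured 0.17 ± 0.058 with a limma adjusted p of 0.239 and CYTB 0.17 ± 0.098 with 0.544. The files place the COX2 probe at a copy on nuclear chromosome 1, so its source cannot be told apart by position. Of 40 assembly factors tested, 0 were called. Ndufaf2 and Uqcc2, factors for complexes I and III, measured -0.16 each and Coa6, which serves complex IV, -0.10. Among 14 regulators of mitochondrial biogenesis, Gabpb2, a partner chain of GABPA, was higher with VIP by 0.27 ± 0.045, with a limma adjusted p of 0.0138, while Nfe2l2 at 0.21 and Tfb2m at -0.20 did not pass. Of 20 genes for pyruvate dehydrogenase and the tricarboxylic acid cycle, Pdk3, a kinase that inhibits pyruvate dehydrogenase, was higher by 0.32 ± 0.060, with a limma adjusted p of 0.0269, and 0 were lower. Of 9 carriers and pores, 0 were called, with Slc25a3, the phosphate carrier, at 0.17 ± 0.042 and an adjusted p of 0.0756 by limma and Vdac2, an outer membrane pore, at -0.19. The 78 mitochondrial ribosomal protein genes had 0 calls, 24 ratios above 0 and 54 below, and a median of -0.022. The 81 cytosolic ribosomal protein genes had 1 call, Rpl9 at 0.22, and a median of 0.049.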

How the data were processed

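The scans of 6 two-colour arrays went through Feature Extraction 9.5.1.1 (Agilent) with probe positions on mm9, per the file headers, which gave mean and background intensity per channel and quality flags (other values, 0 or 1) in the deposited files. The authors' deposited log10 ratios, in the scanner files and in a series table whose sign was turned where VIP was in Cy3, served as alternatives. Here intensity was corrected with normexp (offset 50) and normalized by loess within arrays in limma 3.58.1 (R 4.3.3), with control spots left out. Outlier spots took part in the loess fit and were left out after it. A gene was read from its brightest probe and tested if well above background on at least 3 arrays in either channel group. Log2 ratios within arrays, which pair both channels of a replicate as labelled, were fitted with a dye and a VIP term (lmFit, eBayes, 4 residual degrees of freedom), and p-values were adjusted by Benjamini-Hochberg over 22829 genes. The fit was tested on simulated data. A p-value reflects only how far these 6 arrays vary, and their number limits the precision. Saturated spots were kept. Probe names were brought to current symbols through a RefSeq table, and lists use those.

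The members and gene lists were chosen with earlier results of these data known. Named were the 2 highest and 2 lowest genes of each complex, the largest dye effect of each, all Sdh and Atp5g genes, tissue isoform pairs, and up to 3 genes by p of each other list; genes outside this rule are said to be so or carry a printed promoter. Alternatives changed background correction, normalization, value source, filter, flags, probe rule, weights, prior, pairing, slide, dye term and replicates. Some single-gene results are left out here.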

Additional observations from a re-analysis of the deposited data

Results flagged for a closer look

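Of 33 sets of 4 to 6 arrays looked at, 2 had an array far from the others by Dixon's criterion, which chance gives in about 5% of sets. The median dye-adjusted log2 ratio over all subunit genes was -0.079 on replicate 4, below the other 5 arrays. The median over the complex I genes was -0.085 on the same array. These sets share most of their genes.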

How the results depend on the processing

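No alternative gave a subunit gene an adjusted p under 0.05 for VIP by limma, and the smallest over 22 alternative fits was 0.0559, for Atp5g3 without replicate 5. Over all members, 132 of 1648 values under these fits (8.01%) changed sign, with 23 of them under median centring and 17 without replicate 4. None of these genes was called. The share is lowered by fits that could not change a sign. Those that alter only the filter, the prior, the pairing or the scale between arrays keep the estimates of the main fit. The Agilent log ratio and the series table hold nearly the same values and both entered the count. The fit with no replicate block, in which the channels of an array are separate samples, also called 0 members, and over all genes it called 1 higher and 0 lower. Median centring in place of loess moved the median ratio of members from 0.0011 to 0.086 and their median dye effect from -0.035 to 0.60, and it reversed the dye effects of Atp5f1 (0.58), Ndufb4 (0.44), Ndufb5 (0.062), Sdhd (0.44) and Cox6c (0.54). Members with a called dye effect numbered 7, and 71 with median centring. They numbered 1 with normexp offset 0, with the Agilent log ratio, with the authors' series table, with a trended robust prior and with no replicate block, and from 1 to 10 with 1 replicate left out. Which part of each setting moved these counts was not tested. The shares of all genes called for dye under these alternatives were not counted.

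Calls over all genes, 363 higher and 119 lower, became 569 and 252 without replicate 5, and 162 and 31, 207 and 57, 179 and 39, 231 and 37 and 204 and 68 without replicates 1, 2, 3, 4 and 6. They were 73 and 9 with normexp offset 0, 112 and 8 with median centring, 19 and 0 with the Agilent log ratio or the series table, 153 and 37 with no dye term, and 494 and 235 with array weights. The higher share of calls was 75.3% and ran from 67.8% with array weights to 100% with the Agilent log ratio, the series table and no replicate block, and it was 93.3% with median centring, 89.0% with offset 0 and 86.2% without replicate 4. Signal over background did not limit the tested members, and it left Cox7b2, Cox8b and Cox8c without a test.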
